A study of Caenorhabditis elegans with 2 samples.

Results

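The nuclear genes for the mitochondrial ribosome and for respiration in Caenorhabditis elegans were examined for peaks of the transcription factor SPTF-2. Genes were taken by symbol. The numbered mrpl and mrps genes, for proteins of the large and small mitochondrial ribosomal subunits, gave 70 members (41 and 29). The numbered nuo, cox, atp, ucr, cyc, sdha, sdhb and sdhd genes, with isp-1, gas-1, mev-1, asb-1, asb-2, asg-1, asg-2, lpd-5 and nduf-7, gave the 47 members called respiration genes here. Together they were 117 of 19973 nuclear protein-coding genes. Peaks came from chromatin immunoprecipitation followed by sequencing (ChIP-seq) of whole worms of strain OP769. These worms carried the unc-119(tm4063) allele and the insertion wgls769, which holds sptf-2 fused to TY1, EGFP and 3xFLAG tags together with unc-119(+). Both biological replicates, the 1 group of the series, had this genotype and were young adults of 64.5 h, males and females pooled, grown from L1 larvae that had been starved after bleaching, and in both an anti-GFP antibody was used. The labels do not say how the cultures were kept apart or whether the native sptf-2 gene was changed, and no list from untagged worms was used here. Whole worms pool all tissues, so occupancy in few cells and weak occupancy in many cannot be told apart.

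Respiration passes electrons from NADH (complex I) or succinate (complex II) through ubiquinone to complex III, then by cytochrome c to complex IV, which reduces oxygen, and complex V uses the resulting proton gradient to make ATP. The mitochondrial genome encodes only some subunits of complexes I, III, IV and V, and those are made on the mitochondrial ribosome, so the proteins of that ribosome and most respiratory subunits are nuclear products that are imported. SPTF-2 belongs to the Sp family of zinc finger factors, whose mammalian members bind GC boxes in promoters.

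A list of 30000 peaks was deposited for each replicate and for the pooled replicates, beside an optimal list of 407 peaks thresholded on reproducibility. The signal value of a peak is the authors' own score, and its scale was not shared: over all peaks the median was 37.5 for the pooled list, 22.7 for replicate 1 and 20.6 for replicate 2. Signal values are therefore compared only within a list, and ranks (1 is the strongest) are given for each list. A gene was counted as having a summit when a peak's summit lay within 500 bp of any of its annotated starts. Read depth is unknown, and the exact (Clopper-Pearson) 95% intervals cover counting error over genes only.

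Summits were found at 61 of the 117 genes in the pooled list (52.1%, interval 42.7 to 61.5), where 36.9% of all coding genes had one. The count was 63 in replicate 1 (53.8%, against 36.6% of all coding genes) and 57 in replicate 2 (48.7%, against 36.8%). In the pooled list and in both replicate lists 37 genes had a summit (31.6%, interval 23.3 to 40.9), against 19.4% of all coding genes. Another 35 genes (29.9%) had none in any of these lists, against 45.8% of all coding genes. The respiration genes stood higher than the ribosomal genes: 29 of 47 had a pooled summit (61.7%, interval 46.4 to 75.5) and 32 of 70 ribosomal genes did (45.7%, interval 33.7 to 58.1). In all 3 lists the counts were 21 respiration genes (44.7%) and 16 ribosomal genes (22.9%). With 1 group and no second condition these shares have no test, and the intervals of both gene sets overlap.

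**Figure D1:**
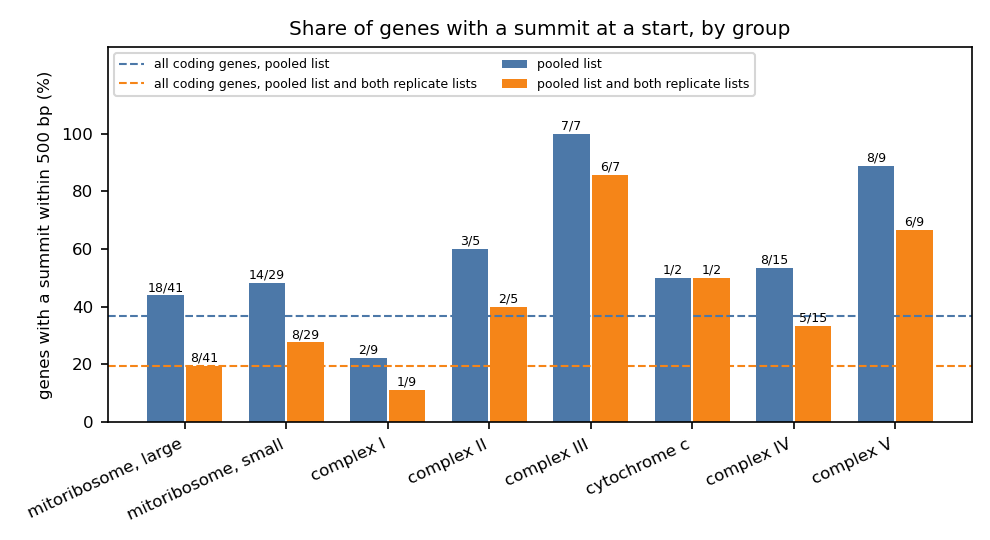
Bars give the percentage of genes in each group with a summit within 500 bp of a start, in the pooled list (blue) and in the pooled list and both replicate lists (orange), with counts above and dashed lines for all coding genes (36.9% and 19.4%). Complex III (7 of 7) and complex V (8 of 9) stand highest in the pooled list, and complex I (2 of 9) lowest.

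The gene sets already differed among the strongest peaks. Within the 15000 strongest pooled peaks, 42 of the 117 genes had a summit (35.9%), against 21.7% of all coding genes, with 23 respiration genes (48.9%) and 19 ribosomal genes (27.1%). Within the 3000 strongest, 12 had one (10.3%), against 5.57% of all coding genes, and 10 of these 12 were respiration genes (21.3% of that set, interval 10.7 to 35.7). The ribosomal genes had 2 (2.86%, interval 0.348 to 9.94). The median pooled signal was 48.2 over the 29 respiration genes with a summit, 39.3 over the 32 ribosomal genes and 40.0 over all 7365 coding genes with one. Among the 407 optimal peaks, summits lay at 2 members (1.71%, interval 0.208 to 6.04), both for subunits of complex IV, against 0.936% of all coding genes. All 407 optimal peaks were among the 407 strongest pooled peaks, so an optimal summit adds nothing to a pooled rank within 407. A summit within rank 407 in both replicate lists was found at no member (0 of 117, which allows a share of up to 3.1%), and 0.345% of all coding genes did.

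**Figure D2:**
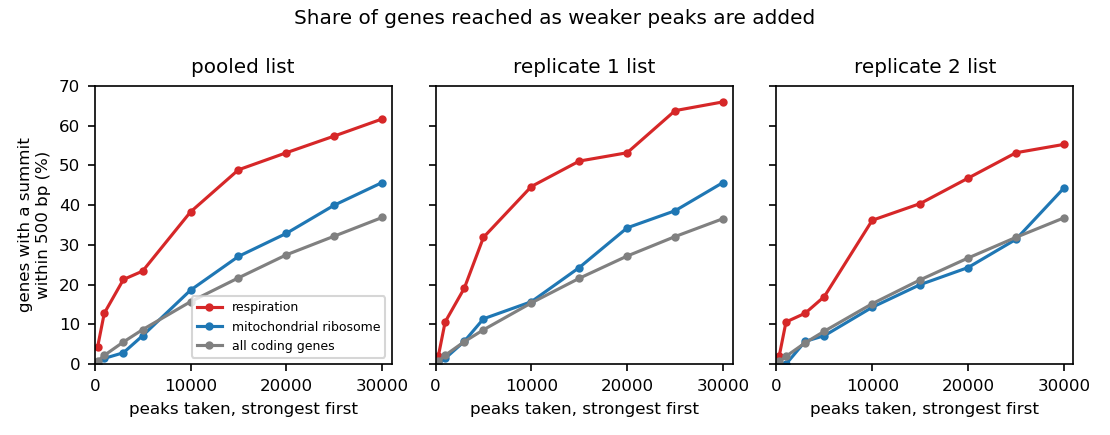
The percentage of genes with a summit within 500 bp of a start (vertical axis) is plotted against the number of peaks taken from the strongest down (horizontal axis) for each list. The respiration genes (red) lie above all coding genes (grey) from 1000 peaks on in each list, reaching 61.7% in the pooled list, while the ribosomal genes (blue) stay nearer to the grey line.

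Complex III, which oxidises ubiquinol and reduces cytochrome c, had the highest median signal of the 5 complexes: all 7 genes had one in the pooled list, 6 of them in all 3 lists and 4 within the 3000 strongest pooled peaks. The median signal of the 7 was 64.0. The genes for its core proteins led. At ucr-2.2 (WBGene00011679, plus strand, start 15173904) the pooled peak X:15173526-15173901 (ce11) had a signal of 79.7 and rank 705, and the ranks were 3387 in replicate 1 and 640 in replicate 2. Its summits lay at -190, -195 and -206 bp from the start (negative is upstream) in the pooled, replicate 1 and replicate 2 lists, so the position varied by few bases. At ucr-1 (WBGene00018963, plus strand, start 5592135) the peak III:5591888-5592263 had a pooled signal of 68.8, rank 1391, and ranked 521 and 5470 in replicates 1 and 2. The pooled summit lay 59 bp upstream, in the stretch shared with ddx-15, a divergent neighbour 416 bp away. The replicate 1 summit was 54 bp upstream, but that of replicate 2 lay 79 bp past its nearest annotated start. Complex II had 3 of 5 genes with a pooled summit, the strongest at mev-1 (WBGene00003225, plus strand, start 10334277), which encodes its cytochrome b subunit and whose mutants are sensitive to oxygen. The peak III:10334015-10334390 had a pooled signal of 66.0, rank 1688, and ranked 1827 and 8319 in replicates 1 and 2, with summits at -74, -76 and -73 bp. The sequences around these summits are shown because ucr-2.2 and mev-1 carry the strongest signals of complexes III and II, and ucr-1 and mev-1 a GC box near the summit. Each is the plus strand of RefSeq's WBcel235 genome (the assembly ce11), up to 100 bases either side of the summit without annotated exon bases. Capitals mark, on either strand, the GC box core GGGCGG, the GA repeat written GAGAGA, the 3′ splice acceptor TTTCAG and the binding site of GATA factors, here TGATAA.
ucr-2.2, X:15173637-15173814: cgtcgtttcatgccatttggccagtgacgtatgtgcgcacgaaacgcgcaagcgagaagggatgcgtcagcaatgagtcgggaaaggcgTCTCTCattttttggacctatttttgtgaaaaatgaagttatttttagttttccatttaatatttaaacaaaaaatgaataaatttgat
ucr-1, III:5591976-5592134: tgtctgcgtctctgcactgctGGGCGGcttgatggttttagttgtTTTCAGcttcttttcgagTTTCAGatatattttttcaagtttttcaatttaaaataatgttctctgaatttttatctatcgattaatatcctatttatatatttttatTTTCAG
mev-1, III:10334103-10334276: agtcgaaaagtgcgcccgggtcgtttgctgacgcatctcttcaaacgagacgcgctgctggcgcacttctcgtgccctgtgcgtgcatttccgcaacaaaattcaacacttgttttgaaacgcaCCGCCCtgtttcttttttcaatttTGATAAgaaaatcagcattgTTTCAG
The GC box began 79 bp before the pooled summit of ucr-1 and 24 bp after that of mev-1, where it reads on the strand opposite to the gene. Both stretches end in a splice acceptor at the base before the annotated start. In C. elegans many annotated 5′ ends are sites of trans-splicing to a leader RNA, so such a start need not be where transcription begins.

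Complex IV, cytochrome c oxidase, had 8 of 15 genes with a pooled summit, including assembly factors, and 5 in all 3 lists. One of its optimal peaks lay at cox-5A (WBGene00012553, plus strand, start 12905491), for a nuclear-encoded subunit. The peak III:12905090-12905465 had a pooled signal of 107 and rank 211, with a signal of 66.7 and rank 163 in replicate 1 and 43.0 and rank 589 in replicate 2. The summits lay at -213, -217 and -264 bp. No other coding gene lay near, since the next one upstream, unc-71, is 13752 bp away. Its sequence, from the same genome, strand and marking, holds a GA repeat beginning 24 bp before the summit and a splice acceptor, and no GC box core.
cox-5A, III:12905178-12905378: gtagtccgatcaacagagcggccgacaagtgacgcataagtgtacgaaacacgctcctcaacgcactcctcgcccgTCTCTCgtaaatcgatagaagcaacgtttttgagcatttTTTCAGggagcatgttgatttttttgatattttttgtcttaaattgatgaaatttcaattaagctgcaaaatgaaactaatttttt

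The other optimal peak, I:9788557-9788932, lay at cox-5B (WBGene00000371, plus strand, start 9788725), for another oxidase subunit. It was the strongest of all members in the pooled list, with a signal of 118 and rank 137. In replicate 1 it had a signal of 53.8 and rank 424, and in replicate 2 a signal of 61.0 and rank 110. The summit lay in the annotated 5′ UTR, 20 bp past the start, with tba-1 as the next coding gene upstream at 1100 bp. Each of these oxidase genes passed rank 407 in 1 replicate only, cox-5B in replicate 2 and cox-5A in replicate 1. At cox-16, whose human and yeast relatives act in oxidase assembly, the pooled signal was 49.5 (rank 5839), with ranks of 4190 and 2895 in the replicates. Its pooled summit lay 20 bp upstream, in the stretch shared with the divergent gene syp-2, which is 243 bp away. The replicate 2 summit lay at the annotated start, but that of replicate 1 lay 232 bp past its nearest annotated start. The weaker pooled summits of the complex were at cox-4 (45.8), cox-15 (44.3), cox-6C (39.7), cox-6B (30.4) and cox-7C (28.8). Those at cox-6C and cox-7C were each missing from 1 replicate list and that at cox-6B from both. The start of Y71H2AM.20 was nearer to the cox-6B summit, at 55 bp against 199 bp. The other 7 genes had no pooled summit, and of these cox-14 had one in both replicate lists (ranks 12187 and 3237).

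Of the remaining complex III genes, ucr-2.3 and cyc-1 had the highest signals. At ucr-2.3, a paralogue of ucr-2.2, the pooled signal was 76.7 (rank 856, with ranks of 3181 and 436 in replicates 1 and 2). The pooled summit lay in an intron 406 bp past the start, and those of replicates 1 and 2 lay 401 and 319 bp past it. At cyc-1, for cytochrome c1, the signal was 64.0 (rank 1901, with ranks of 1735 and 5184), 323 bp upstream. The values were 49.9 at ucr-2.1, where the start of nmat-1 lies nearer to the summit, 42.0 at ucr-11 and 37.4 at isp-1. The Rieske iron-sulfur protein gene isp-1, a mutation of which lengthens worm life, had no summit in replicate 2 and ranked 6429 in replicate 1. In complex II, sdha-1 and its paralogue sdha-2, for the flavoprotein subunit, had pooled signals of 41.3 and 40.1, and sdha-1 had no summit in replicate 2. No list had a summit at sdhb-1 or sdhd-1.

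Complex V, the ATP synthase, had 8 of 9 genes with a pooled summit (88.9%, interval 51.8 to 99.7) and 6 in all 3 lists. The strongest was at atp-1, for the alpha subunit of the catalytic head, with a pooled signal of 77.6 (rank 813) and ranks of 4448 and 702 in replicates 1 and 2. Its pooled summit lay in the 5′ UTR 56 bp past the start, and mcrs-1 starts divergently 189 bp away. The replicate 2 summit was 57 bp past the start, but that of replicate 1 lay at another place, 328 bp past it. The gene asb-1, for a form of stalk subunit b, had a pooled signal of 58.1 (rank 2941, with ranks of 3415 and 5702). The gene atp-3, for the subunit that joins the stalk to the head, had a signal of 57.0 (rank 3192, with ranks of 2591 and 8471). The start of the divergent gene F27C1.2 was nearer to its pooled summit, at 117 bp against 132 bp. At atp-2, for the catalytic beta subunit, the replicates differed, with rank 583 in replicate 1 and 16006 in replicate 2 (pooled signal 49.9). The atp-2 summits lay at -182, -170 and 18 bp in the pooled, replicate 1 and replicate 2 lists, so the replicate ranks belong to different places. The other summits were at asb-2 (48.2), asg-1 (43.2), atp-4 (36.8) and atp-5 (33.1). At atp-5 the start of lmtr-3 was nearer to the pooled summit, at 120 bp against 199 bp. Only replicate 2 had a summit at asg-2 (rank 24733).

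Of the cytochrome c genes, cyc-2.1 had the third highest pooled signal of all members, 83.5 (rank 584, peak IV:4749245-4749620). The strongest replicate 1 summit, at IV:4749425, lay within that peak and ranked 343. In replicate 2 the strongest summit in the window ranked 4989 but belonged to another peak, IV:4748222-4748585. It lay 45 bp past its nearest annotated start of cyc-2.1. The pooled summit, 421 bp upstream, lay in a coding exon of rpl-20, a cytosolic ribosomal protein gene on the same strand. That gene ends 110 bp before cyc-2.1, and its start was nearer to the pooled summit, at 345 bp. A weaker pooled summit lay 78 bp from the cyc-2.1 start, with a signal of 40.2 (rank 12103). The paralogue cyc-2.2 had a summit in replicate 1 only (rank 16299). Complex I, the NADH dehydrogenase, had the lowest share in the pooled list, with 2 of 9 genes (22.2%, interval 2.81 to 60). It had 4 of 9 in replicate 1 (44.4%) and 2 of 9 in replicate 2. The pooled summits were at nuo-1, for the flavin-binding subunit, with a signal of 38.6, and nduf-7, for an iron-sulfur subunit, with 32.8. Of these 2 only nduf-7 had a summit in both replicates (ranks 22796 and 8079), at different places (I:9111063 and I:9110456). The 26 other complex I subunit and assembly genes, named nduf or by related symbols outside the 9, had pooled summits at 13 (50%).

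**Figure D3:**
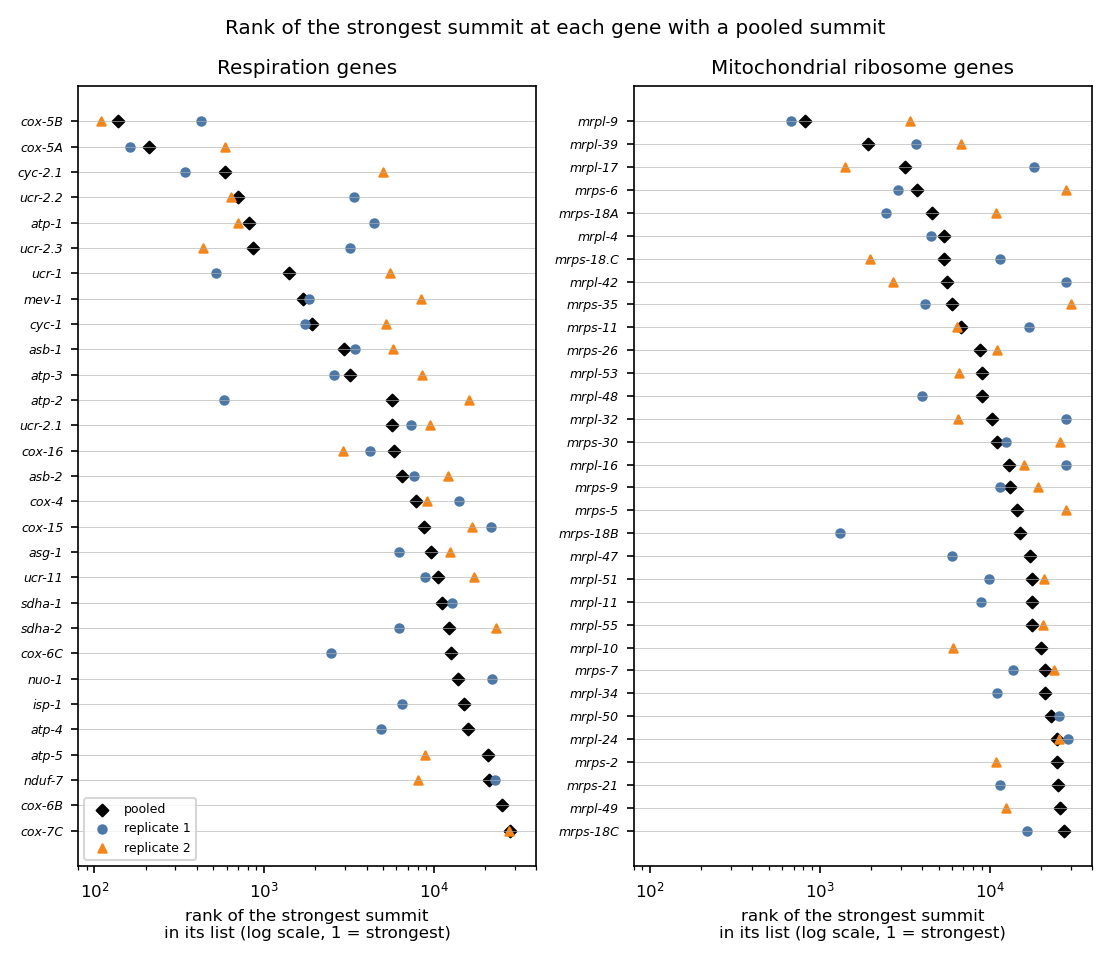
Each row is a gene with a pooled summit, and symbols give the rank of its strongest summit within 500 bp of a start in the pooled list (diamonds), replicate 1 (circles) and replicate 2 (triangles), on a log axis where 1 is the strongest peak. Ranks under 1000 in the pooled list are held by 6 respiration genes and 1 ribosomal gene (mrpl-9, 814), and a missing symbol means no summit in that list.

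The mitochondrial ribosomal genes had pooled summits at 18 of 41 large-subunit genes (43.9%) and 14 of 29 small-subunit genes (48.3%), with median signals of 37.6 and 40.3. Their intervals, 28.5 to 60.3 and 29.4 to 67.5, hold the 36.9% of all coding genes, so these shares are not set apart from it. The second strongest of the large subunit was at mrpl-39 (WBGene00044344, plus strand, start 1821579), which had a pooled signal of 63.9 and rank 1912 at V:1821331-1821706 and ranked 3684 and 6760 in replicates 1 and 2. Its summits lay at -60, -55 and -63 bp, between mrpl-39 and the divergent gene gly-7. The sequence is shown as the ribosomal counterpart of ucr-1 and mev-1, with a GC box core on the opposite strand beginning 79 bp before the summit and a splice acceptor at the base before the start.
mrpl-39, V:1821419-1821578: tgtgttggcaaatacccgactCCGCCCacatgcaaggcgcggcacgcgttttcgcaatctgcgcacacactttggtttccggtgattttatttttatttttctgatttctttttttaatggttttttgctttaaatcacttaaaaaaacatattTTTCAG

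The strongest ribosomal gene was mrpl-9, with a pooled signal of 77.5 (rank 814) and ranks of 679 and 3373. Its pooled summit lay 18 bp upstream of its start, in the stretch shared with kin-3, and the replicate summits lay at -104 and 98 bp. The third, mrpl-17, had a pooled signal of 57.1 (rank 3179), but ranked 18256 in replicate 1 and 1400 in replicate 2. Its summits lay at -95, 62 and -155 bp in the pooled, replicate 1 and replicate 2 lists. In the small subunit the highest signals were 55.1 at mrps-6, 52.6 at mrps-18A and 50.4 at mrps-18.C. At the first pair the start of another gene was nearer to the summit, rpn-8 at 74 bp and ZC262.2 at 47 bp. The pooled summit of mrps-18.C lay in its own coding exon, 125 bp past the start. Its ranks in replicates 1 and 2 were 11514 and 1971, with summits 244 and 44 bp past the start.

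Ribosomal genes made up 4 of the 5 members whose replicate ranks lay furthest apart, and 17 of the 39 members with a summit in both replicates. The same differences over all coding genes are not given here. Of the 39 members with a summit in both replicates, the 5 largest rank differences were at mrps-35 (4165 and 29956), mrpl-42 (27973 and 2695), mrps-6 (2900 and 28026), mrpl-32 (28209 and 6465) and sdha-2 (6206 and 23167). The highest ranked in replicate 1 with no summit in replicate 2 were mrps-18B (1318) and cox-6C (2485). In replicate 2 they were mrps-31 (2251), which had no pooled summit either, and mrpl-10 (6087), where clec-142 starts nearer to the pooled summit. Over the 39 genes the log2 signals of the replicates had Pearson r of 0.374 and Spearman rho of 0.314, and without cox-5A and cyc-2.1, the farthest from the median in replicate 1, r was 0.304 over 37. For the 22 respiration genes r was 0.443 and rho 0.5, for the 17 ribosomal genes -0.0379 and -0.154, and for 4216 coding genes 0.415 and 0.292. These are descriptions across genes, which are not independent, and both lists used the same control. Summits of the 2 replicates lay within 100 bp of each other at 18 of the 39 genes (46.2%, against 42.2% of the coding genes).

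**Figure D4:**
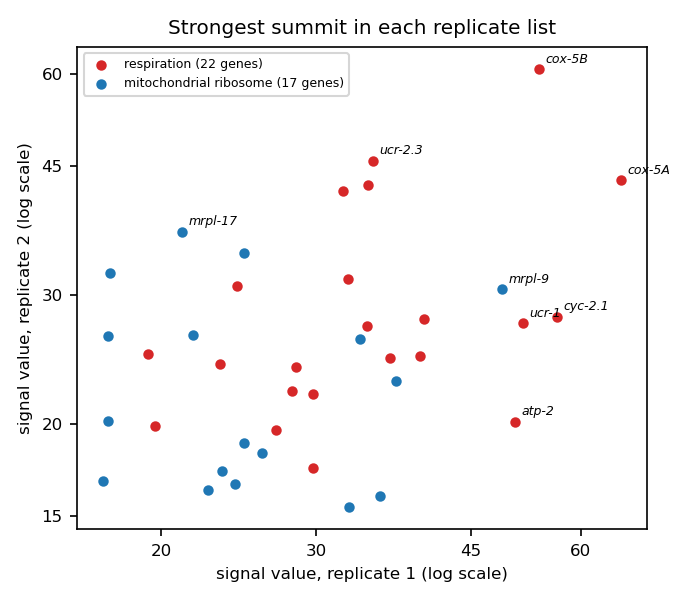
Each point is a gene with a summit in both replicate lists, with its signal value in replicate 1 on the horizontal axis and in replicate 2 on the vertical axis, both on log scales. The 22 respiration genes (red) include the highest of each list, cox-5A in replicate 1 and cox-5B in replicate 2, and the 17 ribosomal genes (blue) show no common trend (r = -0.0379).

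Among summits within the window of 500 bp, the median offset from the start was -20 bp for members (negative is upstream) and 3 bp for all coding genes. Of the members' summits, 33 of 61 (54.1%) were upstream, near the 49.8% over all coding genes with a summit. Within 250 bp lay 40 (65.6%), against 55.8% of all coding genes with a summit. By annotation 23 lay between coding genes, 7 in introns and 31 in exons or UTRs, a split given here for members only. At 22 genes (36.1%) the summit had the start of another coding gene within 500 bp too, against 15.2% of all coding genes with a summit. For those summits the genes cannot be told apart. The gene's own start was the nearest at 51 members (83.6%), against 92.5% of all coding genes with a summit, and at 10 members another gene's start was nearer. No tRNA, snoRNA or snRNA gene started within 500 bp of any of the 61, against 2.31% of all coding genes with a summit. Just inside the window were mrps-6 (471 bp) and mrpl-50 (494 bp), and just outside it mrpl-15 (508 bp) and mrps-25 (579 bp).

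The members are packed more tightly than other genes. A same-strand gene ended within 500 bp upstream of 43 (36.8%, against 17.7% of all coding genes), and a divergent gene started within 1000 bp of 49 (41.9%, against 17.2%). Only 19 (16.2%, against 58.1%) had no coding gene close upstream. Within each of these 3 arrangements the members had pooled summits more often than all coding genes, at 55.8% against 36.7%, 55.1% against 44.8% and 47.4% against 34.3%. Of the 6 members that start inside another gene 1 had a pooled summit (16.7%, against 38.8%). Among the 19 genes with none close upstream the sets diverged: 5 of 6 respiration genes and 4 of 13 ribosomal genes had a pooled summit. The number of annotated starts also moves with these shares, and among genes with 1 start the members had summits at 49 of 98 (50%) and all coding genes at 32.1%. No ribosomal gene of the mitochondria lay on X, and 6 respiration genes did (12.8%, near the 13.7% of all coding genes).

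GC box cores were more frequent in the promoters of respiration genes than of all coding genes, and all of them were at genes with a pooled summit. The letters GGGCGG, on either strand, occurred between 250 bp before and 50 bp after the 5′ end of 11 of 47 respiration genes (23.4%), 6 of 70 ribosomal genes (8.57%) and 7.83% of all coding genes. All 11 were among the 29 respiration genes with a pooled summit (37.9%), and the other 18 had none. Among ribosomal genes the counts were 3 of 32 with a pooled summit and 3 of 38 without, and among all coding genes the shares were 9.22% and 7.02%. The 11 were atp-1, atp-2, atp-3, asb-2, ucr-1, ucr-2.1, isp-1, mev-1, cyc-2.1, nduf-7 and cox-6B. In atp-1, atp-2, isp-1, mev-1 and ucr-1 the box began within 100 bp of the summit. In atp-3, ucr-2.1, cyc-2.1, asb-2 and nduf-7 it began at 162, 203, 442, -639 and -670 bp from the summit. In cox-6B it lay at an outer annotated start, at -86309 bp from the summit. Within 100 bp of the summit the letters occurred at 5 of the 29 respiration genes (17.2%), against 5.96% of the summits at coding genes. The split was less complete by replicate, with 10 of 31 respiration genes with a summit and 1 of 16 without in replicate 1, and 9 of 26 and 2 of 21 in replicate 2. The GC content of the windows differed too, at a mean of 37.0% in respiration genes with a pooled summit and 33.2% in those without, against 35.9% and 34.2% over all coding genes, and its part in the count was not tested.

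**Figure D5:**
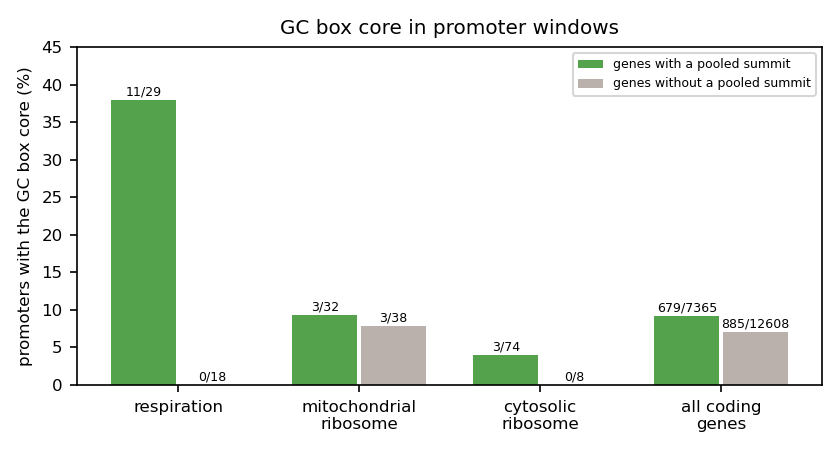
Bars give the percentage of promoter windows (250 bp before to 50 bp after the 5′ end) that hold the GC box core, for genes with (green) and without (grey) a pooled summit, with counts above. The respiration genes stand at 11 of 29 against 0 of 18, and the cytosolic ribosomal genes, most of which have a summit, at 3 of 74.

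The letters of the splice acceptor differed by more percentage points than the GC box. Each motif was counted on either strand, so a counted TTTCAG need not be an acceptor of the gene itself. In respiration genes with and without a pooled summit TTTCAG was in 22 of 29 (75.9%) and 5 of 18 (27.8%) promoter windows, the GA repeat GAGAGA in 10 and 2, the CACC box (CACCC) in 7 and 1, and the GATA site TGATAA in 4 and 2. Over all coding genes with and without one the shares were 51.1% and 52% for the splice acceptor, 24.6% and 20.1% for the GA repeat, 19.9% and 18.4% for the CACC box and 29.6% and 30.5% for the GATA site. The letters TGACGCA, searched because they were seen in the printed sequences of cox-5A and mev-1, lay within 100 bp of 4 of the 61 summits (6.56%, at cox-5A, ucr-2.2, mev-1 and mrpl-32), against 1.69% of the summits at coding genes. In promoter windows they were in 3 of 117 members (2.56%), near the 2.11% of all coding genes. This motif was chosen after the sequences were read, and 3 of the 4 summits are those printed, so its count is a description only.

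Other mitochondrial gene lists had pooled summits at 33.3% to 54.5% of their genes, against 36.9% of all coding genes. Citric acid cycle genes had pooled summits at 9 of 20 (45%), all 9 of them in all 3 lists, led by dlst-1 (signal 91.5, rank 385), for a subunit of the 2-oxoglutarate dehydrogenase complex. Mitochondrial translation factor and synthetase genes had 8 of 15 (53.3%), led by ears-2 (191, rank 25), for a glutamyl-tRNA synthetase. The counts were 6 of 15 for carriers (40%), led by the adenine nucleotide translocator gene ant-1.1 (96.5, rank 314), 6 of 11 for chaperones, proteases and prohibitins (54.5%), 5 of 15 for protein import (33.3%) and 3 of 7 for coenzyme Q synthesis (42.9%, with 0 in all 3 lists). The shares for carriers, import and coenzyme Q synthesis are near that of all coding genes. Genes for the cytosolic ribosome stood apart from the mitochondrial ones, with 74 of 82 (90.2%) and a median pooled signal of 66.7, against 32 of 70 and 39.3.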

How the data were processed

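Peak lists from 2 biological replicates in 1 group were used. Per the deposited file descriptions, a replicate list was derived from an alignment of that replicate with a control, the pooled list used both replicates with that control, while the optimal list applied a reproducibility threshold. The authors' signal value is a score whose scale belongs to the peak caller, and the deposited summit is an offset from the start of its peak. For the aligner and the caller no name or setting is given in the sources used here. The depth of each sample is unknown. A fixed length of 30000 peaks cuts weak summits, so absence from a list is not absence of binding.

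Genes and starts came from Ensembl release 115 on WBcel235 (ce11), and coordinates are 1-based. Summits were assigned to genes within 500 bp of any start with Python 3.11.15 and NumPy 2.4.6, intervals with SciPy 1.17.1, and figures with Matplotlib 3.10.9. Steps were tested on simulated data. Genes named are members with an optimal summit, the 3 of highest pooled signal in each group, the 5 with the largest rank difference between replicates, the 2 per replicate of highest rank with no summit in the other, and the 2 just inside and just outside the window. Other members of the respiratory complexes are given to account for them. Members and lists were chosen with earlier results of these data known. Other windows, starts, thresholds, overlap, shared promoters and single replicates were tried. Genes with 1 start, genes without a close same-strand neighbour upstream, other GC box windows and TGACGCA were chosen after seeing the data. No test was made, since the series has no second condition.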

Additional observations from a re-analysis of the deposited data

How the results depend on the processing

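Of 75 values recomputed under the alternatives, 57 lay within the main value's 95% interval (shares and the median) or within 1.5 times it (counts). For the small respiration set that interval is wide, and its share of 48.9% with the stronger peaks alone and 72.3% within 1000 bp lay inside it. The share of members with a pooled summit, 52.1%, was 35.9% within 250 bp, 64.1% within 1000 bp and 35.9% with the stronger peaks alone, when all coding genes stood at 22.5%, 54.5% and 21.7%. The share in all 3 lists, 31.6%, was 17.1%, 47% and 17.1%, and ranged from 48.7% to 53.8% when only 1 replicate's list was asked for. For ribosomal genes, 45.7% became 30%, 58.6% and 27.1%, and for respiration genes 61.7% became 44.7% within 250 bp. These shifts follow from a window or list of another size. Without summits that lay nearer to the start of a gene outside the members, the pooled share was 44.4% and that in all 3 lists 25.6%. By set it was 38.6% for ribosomal genes and 53.2% for respiration genes in the pooled list. The matching share of all coding genes is not given here. The 2 members with an optimal summit became 1 with the stronger peaks alone and 1 among genes with 1 annotated start, and ranged from 1 to 2 without a replicate. Members among the 407 strongest peaks of both replicates, 0 in number, ranged from 1 to 2 when 1 replicate was asked for. The median pooled signal, 43.2, was 49.7 with the stronger peaks alone, and has no value without a replicate, since the scales of the lists differ. No paired analysis was possible because the series has 1 group. Depth is unknown, so weak summits missing from a list cannot be weighed.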
